A study of Mus musculus with 24 samples.

Results

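The 9 genes described here encode proteins that phagocytes use to make or remove reactive oxygen, nitric oxide and itaconate. They were chosen by symbol, with earlier results of these data known. The members are Cybb, Cyba, Ncf1 and Ncf4 of the phagocyte NADPH oxidase, Nos2, Acod1, and the antioxidant genes Sod2, Gpx1 and Prdx5. They are 9 of 55487 genes in the deposited table, and all 9 were among the 17139 genes that passed the filter on low counts. RNA had been sequenced from cells sorted with CD11b magnetic beads and labelled as microglia, the resident macrophages of the brain, from the frontal cortex and the striatum of male mice aged 8 to 10 weeks. The mice were offspring of control pregnancies or of pregnancies with maternal immune activation (MIA), an immune challenge of the dam. Each mouse then received either saline or lipopolysaccharide (LPS, a bacterial cell wall component that activates TLR4) by intraperitoneal injection at 4500 EU/g, and tissue was collected 18 h later.

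The 8 groups were control or MIA offspring, cortex or striatum, and saline or LPS, with 3 libraries in each. The third library of MIA striatum after LPS carried the submitters' mark for exclusion and was set aside, which left 2 there and 23 in all. No source used here gives the agent received by the dams, the litters or the origin of each replicate. The p-values therefore measure only the spread between these samples, and prenatal history cannot be told apart from litter. In bulk samples, a change in the number of cells of a type and a change in RNA per cell cannot be told apart.

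The phagocyte NADPH oxidase moves electrons from NADPH across a membrane to oxygen and releases superoxide. Its membrane part pairs gp91phox (Cybb), which carries the electrons, with p22phox (Cyba), and its cytosolic part brings p47phox (Ncf1) and p40phox (Ncf4), among others, to the membrane together with the GTPase Rac2. Superoxide dismutases turn superoxide into hydrogen peroxide, which glutathione peroxidases and peroxiredoxins reduce. Acod1 makes itaconate from an intermediate of the tricarboxylic acid cycle in activated macrophages, and Nos2 makes nitric oxide from arginine. Inflammatory stimuli such as LPS are known to induce Acod1, Nos2 and Sod2 in cultured macrophages.

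Promoter sequences of 7 of the 9 genes were matched by symbol in RefSeq (GRCm38.p6); none was matched for Ncf4 or Nos2. The stretches upstream of the start of 4 genes are shown, for Cybb, Acod1 and Sod2 because they had the largest fold changes after LPS, and for Ncf1 because it belongs to the same complex as Cybb and was not called. Capitals mark matches to motifs searched on both strands, and each stretch is printed 5′ to 3′ on the gene's strand. The promoter of Cybb lies at chrX:9469325-9469574 on the minus strand, and its capitals mark 3 matches to the interferon-stimulated response element (ISRE: GAAA, any 2 bases, GAAA), which interferon regulatory factors bind, and 1 copy of TGANTCA, the AP-1 motif.
Cybb: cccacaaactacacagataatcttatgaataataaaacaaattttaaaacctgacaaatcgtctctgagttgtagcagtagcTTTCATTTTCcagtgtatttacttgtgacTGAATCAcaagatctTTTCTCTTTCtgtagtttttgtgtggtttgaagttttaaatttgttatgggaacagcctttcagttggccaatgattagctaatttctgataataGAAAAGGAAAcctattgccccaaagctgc
The promoter of Ncf1 lies at chr5:134229626-134229875 on the minus strand, and its capitals mark 1 ISRE match and 1 copy of GGGCGG, the Sp1 motif.
Ncf1: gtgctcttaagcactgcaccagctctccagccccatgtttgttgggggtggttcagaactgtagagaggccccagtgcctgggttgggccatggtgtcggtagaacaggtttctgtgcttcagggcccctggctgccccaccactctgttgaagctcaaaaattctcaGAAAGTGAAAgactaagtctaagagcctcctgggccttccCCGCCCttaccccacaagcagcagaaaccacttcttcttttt
The promoter of Acod1 lies at chr14:103046762-103046976 on the plus strand, and its capitals mark 1 copy of AGGAAGT, a motif of the myeloid factor PU.1.
Acod1: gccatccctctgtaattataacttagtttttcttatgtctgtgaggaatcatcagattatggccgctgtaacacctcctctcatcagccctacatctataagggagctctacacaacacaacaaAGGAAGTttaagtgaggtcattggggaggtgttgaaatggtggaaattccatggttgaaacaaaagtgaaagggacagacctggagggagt
The promoter of Sod2 lies at chr17:13007589-13007816 on the plus strand, and its capitals mark 4 copies of GGGCGG and, between the third and the fourth, 1 match to the kappaB motif of the NF-kappaB family.
Sod2: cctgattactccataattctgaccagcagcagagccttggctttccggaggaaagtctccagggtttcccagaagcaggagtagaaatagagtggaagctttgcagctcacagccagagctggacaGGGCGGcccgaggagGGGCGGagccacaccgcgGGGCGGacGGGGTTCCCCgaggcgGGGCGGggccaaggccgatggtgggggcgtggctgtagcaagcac
Over windows of 250 bases before the start, the ISRE motif was found in Cybb and Ncf1 and in 3.0% of all 32851 promoters. The kappaB motif was found in Sod2 and Gpx1 and in 7.3% of all promoters, and AGGAAGT in Acod1 and in 7.7%. The match in Gpx1 lay in a part of its window that the gene annotation (GENCODE) places in an exon of Gpx1. GGGCGG was found in Cyba, Ncf1, Sod2 and Prdx5 and in 32.7% of all promoters, and TGANTCA in Cybb and in 6.7%. The core of the antioxidant response element, TGACNNNGC, was found in none of the 7 and in 10.2% of all promoters, and the C/EBP motif TTGCNNAA in none of the 7 and in 9.6%. A match is a description of the letters in these windows, and binding was not measured.

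Libraries held between 19453295 and 29480499 counts and between 17723 and 20324 genes with a count. Microglial identity was checked on 10 marker genes, whose summed level was 40030 to 51818 CPM (counts scaled to the size of each library) in the saline libraries and 23641 to 30857 after LPS. The defining genes P2ry12 and Tmem119 were at 5530 and 5079 CPM on average in control cortex after saline. Markers of cells other than microglia were also present and moved with LPS. The summed level of 15 neutrophil markers was 414 to 670 CPM in control cortex after saline and 928 to 1110 after LPS, and in control striatum 304 to 348 and 635 to 961. That of 12 blood monocyte markers was 83.4 to 103 and 261 to 426 in control cortex, and 91.5 to 188 and 172 to 359 in control striatum. In MIA offspring the neutrophil sum was 563 to 1053 after saline and 585 to 915 after LPS in cortex, and 299 to 372 and 623 to 918 in striatum, and the monocyte sum was 120 to 167 and 213 to 315, and 40.7 to 119 and 245 to 287. No marker of either list was at 0 in every library of a group. In control cortex 6 of the 15 neutrophil markers were called higher with LPS and 0 lower. S100a8, a calprotectin gene of neutrophils, averaged 39.5 CPM there after saline and 282 after LPS. Camp (10.5 and 3.49), Mpo (3.19 and 0.751) and Elane (0.799 and 0.233) went the other way. Ly6g, which defines neutrophils, was low but higher after LPS, at 0.507 and 1.92 CPM in control cortex and 0.0806 and 2.00 in control striatum. In MIA offspring Ly6g averaged 1.41 and 1.79 in cortex and 0.0474 and 1.49 in striatum. Of the 12 monocyte markers 8 were called higher with LPS and 0 lower in control cortex, and 7 and 0 in control striatum. The monocyte gene Ly6c2 averaged 2.67 CPM after saline and 34.1 after LPS in control cortex, and 0.734 and 22.9 in control striatum. Ccr2, another monocyte gene, moved little in controls, at 10.8 and 9.96 CPM in cortex and 5.12 and 5.83 in striatum. In MIA offspring Ccr2 averaged 12.9 and 8.16 in cortex and 6.06 and 7.11 in striatum. Neutrophils and monocytes also express NADPH oxidase genes, and their part in the changes below was not tested. Across all libraries the summed markers of border macrophages ran from 608 to 1866 CPM, of endothelial cells and pericytes from 576 to 2751, of astrocytes from 238 to 1011, of oligodendrocytes from 296 to 5619 and of neurons from 29.1 to 274.8. The third MIA cortex library after LPS stood apart, with a neuronal marker sum of 274.8 CPM against 32.2 and 29.1 in the other two, and an oligodendrocyte sum of 1631 against 338 and 374.

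**Figure D1:**
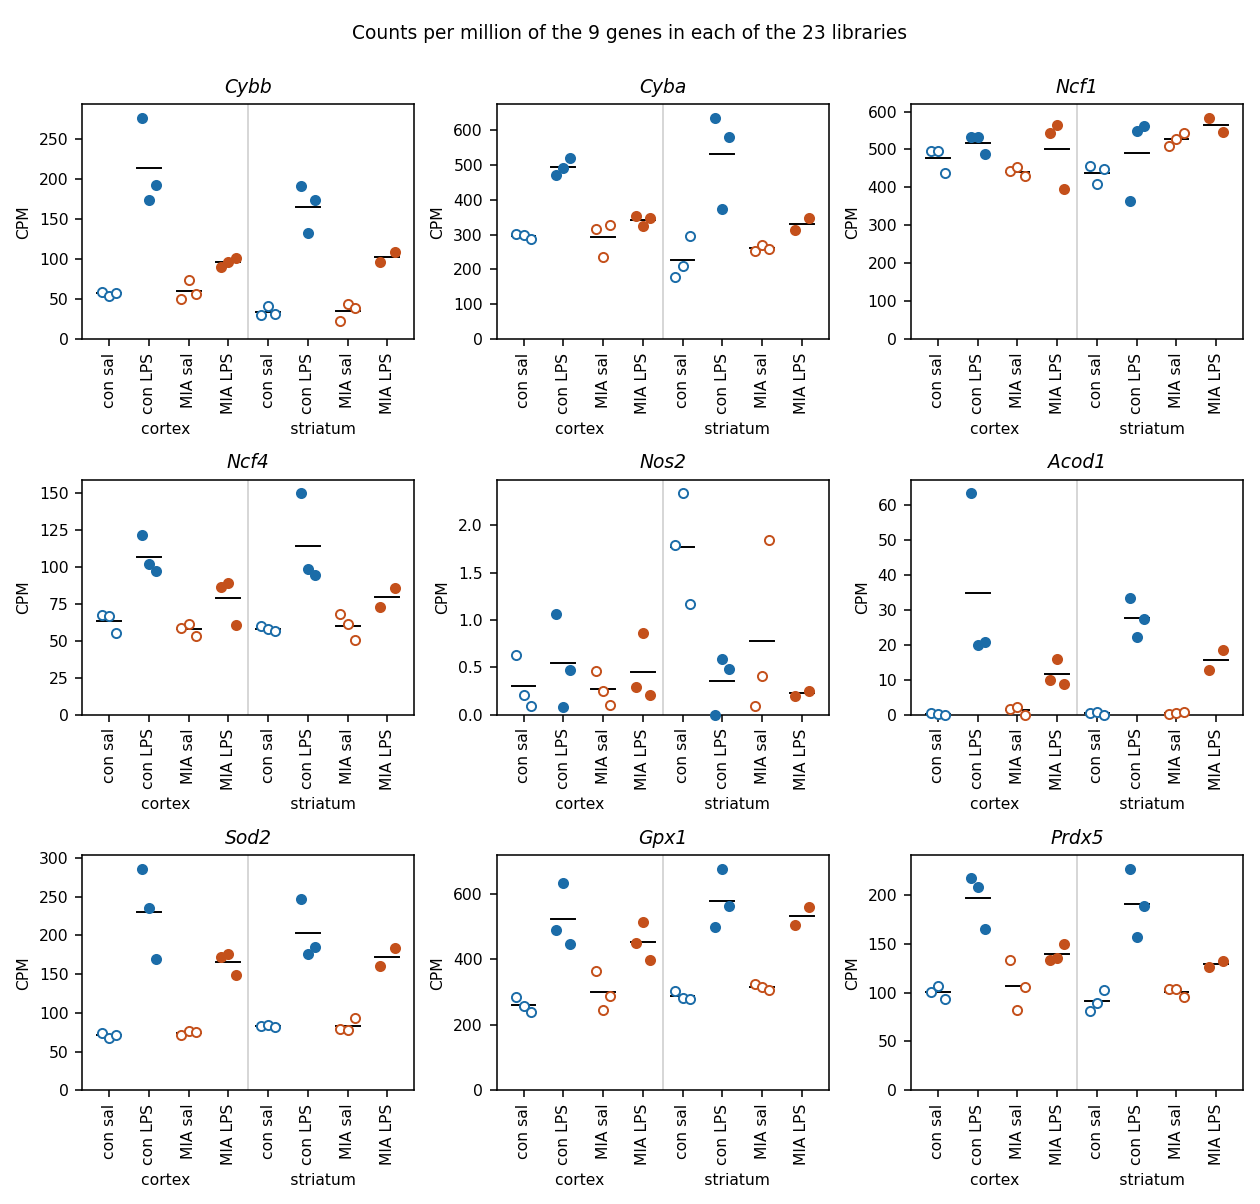
CPM (vertical axis, linear, each panel on its own scale) of the 9 genes in each of the 23 libraries. Open points are saline and filled points LPS, blue control and orange MIA, and the black line is the group mean; Cybb after LPS sits between 90.1 and 277 CPM, above all saline libraries, while Nos2 is nowhere above 2.34 CPM.

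Levels were compared between genes per kilobase of exon in control cortex after saline. On that scale Cyba stood at 284 CPM per kb, Gpx1 at 181 and Ncf1 at 130, followed by Prdx5 at 46.8, Ncf4 at 31.3, Cybb at 9.85 and Sod2 at 7.09. Nos2 and Acod1 were close to absent, at 0.0698 and 0.0607. The exon length of Sod2 (10.008 kb, with a long tail of the transcript) lowers its value per kb.

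The response to LPS was read separately in control and MIA offspring and in each region, as the log2 fold change of LPS over saline with its standard error (SE) from edgeR's quasi-likelihood test, with Benjamini-Hochberg adjustment over all tested genes. Calls were made where the adjusted p was under 0.05. In control cortex 7 of the 9 genes were called, all higher, where 10.9% of all tested genes were called higher and 18.2% in either direction. In control striatum the same 7 were called higher (Cybb, Cyba, Ncf4, Acod1, Sod2, Gpx1 and Prdx5), against 12.7% of all genes called higher and 20.9% in either direction. In MIA cortex 3 were called, Acod1, Sod2 and Gpx1 (background 7.05% higher and 11.9% in all), and in MIA striatum 4, the same 3 and Cybb (background 6.93% and 10.2%). Saline and LPS libraries did not overlap for 7 of the 9 genes in cortex and 8 in striatum of controls, and for 4 and 8 in MIA offspring, where 33.5%, 34.9%, 26.8% and 44.4% of all genes did not overlap. The last comparison holds only 2 LPS libraries. The median log2 fold change of the 9 genes in controls was 0.97 (cortex) and 1.07 (striatum), beside 0.04 and -0.02 over all tested genes. In MIA offspring it was 0.61 and 0.40, beside 0.01 and -0.06.

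**Figure D2:**
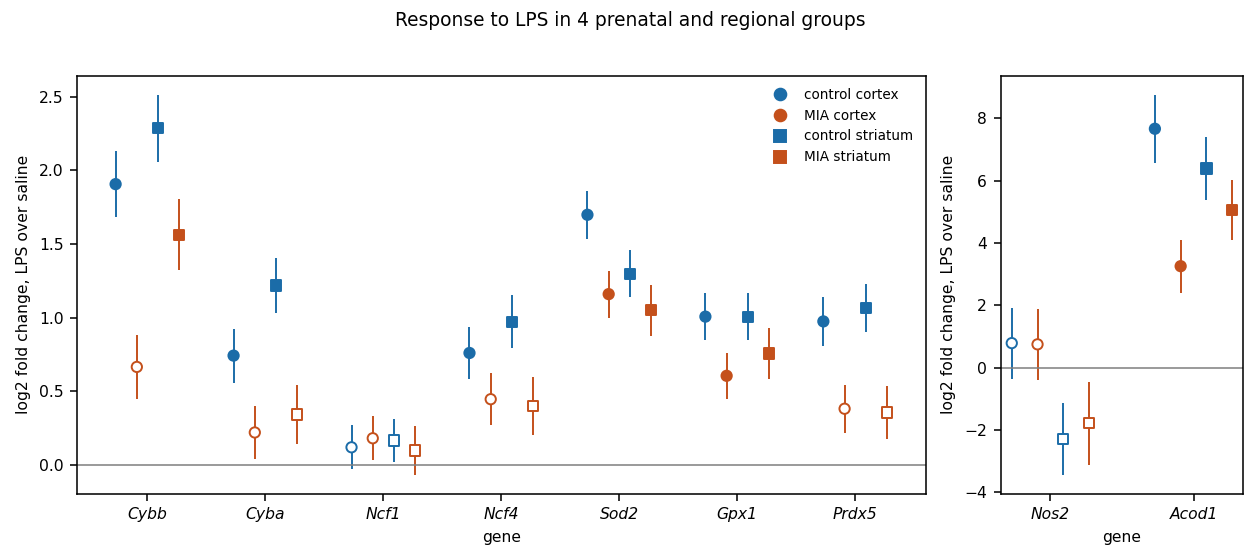
Log2 fold change of LPS over saline (vertical axis) for each gene, with bars of 1 SE; circles are cortex, squares striatum, blue control and orange MIA, and filled symbols passed the test. Nos2 and Acod1 have an axis of their own, and Cybb, Cyba and Prdx5 lie lower in MIA (0.67, 0.22 and 0.38 in cortex) than in control offspring (1.91, 0.74 and 0.97).

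Cybb, the electron-carrying subunit of the oxidase, rose with LPS in control offspring of both regions. In control cortex its 3 saline libraries held 59.2, 54.5 and 57.9 CPM and its LPS libraries 277, 174 and 192 CPM. The groups did not overlap, and the first LPS library was the highest of all 23. The change was 1.91 ± 0.23 (log2, SE; adjusted p = 4.6e-06 by edgeR's quasi-likelihood test). In control striatum saline gave 30.0, 41.0 and 31.1 CPM and LPS gave 191, 133 and 174 CPM. All 3 LPS libraries lay above all 3 saline libraries, a change of 2.29 ± 0.23 (adjusted p = 6.1e-07, same test).

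In MIA cortex Cybb stood at 50.7, 74.2 and 56.8 CPM after saline and at 90.1, 96.7 and 101.5 after LPS. These groups did not overlap either, but the difference of 0.67 ± 0.22 did not pass the edgeR test (adjusted p = 0.053). That call was a near miss. It was gained with DESeq2 (adjusted p = 0.0327), without the filter on low counts (0.0407 by edgeR), or when any of 7 single libraries was left out (0.0242 to 0.0485). Over all fits with 1 library left out, the change ran from 0.53 to 0.87 and the edgeR adjusted p from 0.0242 to 0.224. In MIA striatum the libraries held 22.5, 43.7 and 38.3 CPM after saline and 96.9 and 109 after LPS. All LPS values lay above all saline values, and the rise of 1.56 ± 0.24 passed the edgeR test (adjusted p = 0.00018). Border macrophage markers moved with it, with sums of 618 to 814 CPM after saline and 1419 to 1748 after LPS, 5 of 10 called higher and a median log2 change of 0.95, and their part in the rise was not tested. In the other 3 LPS comparisons 0 of these 10 markers were called higher and 1 was called lower.

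Cyba encodes p22phox, which stabilises gp91phox in the membrane. Its saline libraries in control cortex held 301, 298 and 287 CPM and its LPS libraries 470, 491 and 521. The libraries within each group lay close together and the groups were apart, a rise of 0.74 ± 0.18 (adjusted p = 0.0065, edgeR). In control striatum Cyba was at 177, 210 and 297 CPM after saline and 636, 374 and 580 after LPS, more widely spread but again without overlap, a rise of 1.22 ± 0.18 (adjusted p = 7.1e-05). In MIA cortex it was at 317, 235 and 328 CPM after saline and 352, 325 and 347 after LPS. The lowest LPS library there lay below the highest saline library, and the difference of 0.22 ± 0.18 did not pass (adjusted p = 0.54). MIA striatum gave 252, 271 and 260 CPM after saline and 312 and 349 after LPS, without overlap, and a difference of 0.34 ± 0.20 that did not pass (adjusted p = 0.36).

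Among the cytosolic subunits, Ncf4 rose in control offspring and Ncf1 was not called in any LPS comparison. Ncf4 encodes p40phox, which binds a phosphoinositide of phagosome membranes. Its levels in control cortex were 67.3, 66.8 and 55.6 CPM after saline and 122, 102 and 97.6 after LPS, a rise of 0.76 ± 0.18 (adjusted p = 0.0046, edgeR). In control striatum they were 60.2, 57.9 and 56.7 after saline and 150.0, 98.7 and 94.3 after LPS, a rise of 0.97 ± 0.18 (adjusted p = 0.00052). The groups were apart in both regions, and the first striatal LPS library stood above the other two.

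In MIA cortex Ncf4 was at 58.8, 61.5 and 53.0 CPM after saline and 86.3, 89.2 and 60.8 after LPS. The third LPS library, the one with high neuronal and oligodendrocyte markers, fell within the saline range, and the difference was 0.45 ± 0.18 (adjusted p = 0.12). Without that library Ncf4 was called (adjusted p = 0.0306, edgeR). In MIA striatum Ncf4 was at 68.1, 61.7 and 50.8 CPM after saline and 73.0 and 85.8 after LPS, a difference of 0.40 ± 0.20 (adjusted p = 0.25).

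Ncf1 encodes p47phox, the organiser that is phosphorylated when the oxidase is switched on. It was abundant in every group, from 364 CPM in a control striatum library after LPS to 584 in a MIA striatum library after LPS. Control cortex held 496, 497 and 437 CPM after saline and 532, 533 and 488 after LPS, with overlap. Control striatum held 457, 408 and 449 CPM after saline and 364, 548 and 562 after LPS, where the first LPS library lay below all saline libraries and the other two above. In MIA striatum the LPS libraries (584 and 545) lay just above the saline libraries (509, 528 and 544), and in MIA cortex the third LPS library (395) lay below the saline range of 429 to 453 and the other two (542 and 565) above it. The log2 differences were 0.12 ± 0.15 and 0.17 ± 0.15 in cortex and striatum of controls and 0.18 ± 0.15 and 0.10 ± 0.17 in those of MIA offspring. Their 95% intervals lay between -0.25 and 0.49. Of the 24 values of Ncf1, 83.3% were not whole numbers, which means that reads were shared with other features; the same was true of 79.2% for Sod2 and 100% for Prdx5, and of none for the other 6 genes.

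Nos2, the inducible nitric oxide synthase, was barely detected. Its counts ran from 0 to 55 per library, or 0 to 2.34 CPM, in all 23 libraries. Control cortex held 0.627, 0.203 and 0.0936 CPM after saline and 1.07, 0.0824 and 0.476 after LPS. Control striatum held 1.79, 2.34 and 1.17 CPM after saline and 0, 0.589 and 0.480 after LPS, so that there the LPS libraries were the lower ones and did not overlap. In MIA offspring the highest library was a saline library of striatum, at 1.85 CPM, and the others lay at 0.862 or below. The log2 differences in control cortex and striatum were 0.78 ± 1.14 and -2.29 ± 1.15 (adjusted p = 0.73 and 0.18, edgeR), with 95% intervals of -1.59 to 3.15 and -4.69 to 0.10.

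Acod1, the itaconate-producing enzyme, had the largest fold changes of the 9. It gave 9, 2 and 0 counts in the saline libraries of control cortex and 1310, 486 and 483 in the LPS libraries. In CPM these were 0.376, 0.101 and 0 against 63.4, 20.02 and 20.9. The groups were far apart, and the first LPS library held more than the other two together; it was also the library with the highest Cybb. The rise was 7.66 ± 1.10 (adjusted p = 4.2e-05, edgeR), a value that rests on few saline counts and ranged from 6.90 without that library to 9.33 without the first saline library.

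In control striatum Acod1 was at 0.387, 0.639 and 0 CPM after saline and at 33.4, 22.3 and 27.3 after LPS. Its rise was 6.39 ± 1.01 (adjusted p = 0.0001, edgeR; 5.73 without the third and 7.32 without the second saline library). MIA cortex held 1.47, 2.22 and 0 CPM after saline and 10.0, 16.0 and 8.69 after LPS. Here the first and second saline libraries were above all other saline libraries of the study and the LPS values below those of control cortex. The rise was 3.25 ± 0.84 (adjusted p = 0.014; 4.07 without the second saline library). MIA striatum held 0.266, 0.406 and 0.711 CPM after saline and 12.7 and 18.6 after LPS, a rise of 5.05 ± 0.97 (adjusted p = 0.0014).

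Sod2 encodes the manganese superoxide dismutase of mitochondria, and like Acod1 and Gpx1 it was called in all 4 comparisons. In control cortex it was at 74.0, 67.0 and 71.7 CPM after saline and 286, 235 and 169.7 after LPS, and in control striatum at 82.7, 83.8 and 81.3 and 248, 176 and 185. In MIA cortex it was at 71.6, 76.1 and 74.9 and 172.5, 176 and 149, and in MIA striatum at 78.5, 78.2 and 92.8 and 161 and 184. The 12 saline libraries lay between 67.0 and 92.8 CPM and the 11 LPS libraries between 149 and 286, with no overlap in any group. The rises were 1.70 ± 0.16, 1.30 ± 0.16, 1.16 ± 0.16 and 1.05 ± 0.17 in the same order (adjusted p = 3.6e-07, 7.1e-06, 5e-05 and 0.00038, edgeR).

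Gpx1 encodes the main cytosolic glutathione peroxidase, a selenoprotein. It was at 284, 257 and 239.7 CPM after saline and 489, 633 and 447 after LPS in control cortex, and at 304, 282 and 279.9 and 499, 677 and 564 in control striatum. In MIA cortex it was at 363, 245 and 288 and 449.6, 515 and 399, and in MIA striatum at 323, 315 and 307 and 504.5 and 559. No group overlapped with its saline counterpart, and the rises were 1.01 ± 0.16, 1.01 ± 0.16, 0.61 ± 0.16 and 0.76 ± 0.17 (adjusted p = 0.00011, 0.0001, 0.014 and 0.0062, edgeR). The call in MIA cortex was lost without the second LPS library (0.51, adjusted p = 0.082) or the second saline library (0.51, adjusted p = 0.0529). That in MIA striatum was lost without the second LPS library (0.62, adjusted p = 0.129), a fit that leaves 1 LPS library and assumes that it varies like the other groups.

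Prdx5 encodes a peroxiredoxin of mitochondria, peroxisomes and cytosol. Control cortex held 100.3, 107 and 93.1 CPM after saline and 217, 208 and 165 after LPS, and control striatum 81.5, 89.6 and 103 and 227, 157 and 189. The groups were apart, with rises of 0.97 ± 0.16 and 1.07 ± 0.16 (adjusted p = 0.00022 and 8.2e-05, edgeR). MIA cortex held 133, 82.2 and 106 CPM after saline and 133, 135 and 150 after LPS, where the highest saline library reached the lowest LPS library. MIA striatum held 104, 104 and 95.2 and then 126 and 132, without overlap. Neither difference passed (0.38 ± 0.16, adjusted p = 0.15, and 0.36 ± 0.18, adjusted p = 0.26).

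The question of the prenatal comparison was whether MIA offspring differed from control offspring without and with the adult challenge. After saline, none of the 9 genes was called by edgeR in cortex or striatum, where 0% of all genes were called, 921 and 842 genes had an unadjusted p under 0.05, and DESeq2 called 2 and 1. Of the members, 1 had an unadjusted p under 0.05 in cortex and 0 in striatum. That gene was Acod1, with 2.82 ± 1.09 in MIA over control cortex (adjusted p = 0.91), resting on counts of 35, 54 and 0 against 9, 2 and 0. It was 2.03 without the second MIA library and 4.49 without the first control library. Groups did not overlap for 0 of the 9 genes in cortex (13.1% of all genes) and for 2 in striatum, Ncf1 and Gpx1 (13.3%). For Cybb the difference after saline was 0.08 ± 0.22 (95% interval -0.37 to 0.54) in cortex and 0.04 ± 0.22 (-0.42 to 0.49) in striatum. In MIA cortex after saline the first library had a neutrophil marker sum of 1053 CPM against 563 and 604 in the other two.

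After LPS, Cybb, Cyba, Ncf4, Acod1 and Prdx5 were lower in every MIA library than in every control library, in cortex and again in striatum. Such a separation was seen in 7.85% of all tested genes in cortex and, with only 2 MIA libraries, in 22.4% in striatum. In the MIA striatum library set aside, Cyba, Ncf4 and Prdx5 (455, 97.4 and 204 CPM) lay above the lowest control striatum library (374, 94.3 and 157). Their separation in striatum therefore depends on leaving that library out. Cybb (41.6) and Acod1 (8.70) lay below every control striatum library after LPS. In cortex, Cybb stood at 277, 174 and 192 CPM in control and at 90.1, 96.7 and 101.5 in MIA offspring, a difference of -1.16 ± 0.22 on the log2 scale (95% interval -1.62 to -0.70). This was the smallest unadjusted p of the 9 (3.9e-05) and did not pass adjustment (adjusted p = 0.06, edgeR). It passed without the filter on low counts (0.0108), with DESeq2 (0.000998) and without the third MIA cortex library after LPS (0.0362). Over all fits with 1 library left out, the difference ran from -1.29 to -0.93 and the edgeR adjusted p from 0.0362 to 0.482.

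The other members had larger p-values in cortex after LPS. Cyba gave -0.53 ± 0.18, Prdx5 -0.50 ± 0.16, Sod2 -0.47 ± 0.16 and Ncf4 -0.44 ± 0.18, with adjusted p from 0.7 to 0.92 in edgeR. Acod1 gave -1.59 ± 0.76 (adjusted p = 1), and -0.83 without the first control library. Of the 9 genes, 9 lay below 0 (median -0.47, beside -0.01 over all tested genes) and 6 had an unadjusted p under 0.05, all of them lower. Gpx1 (-0.20 ± 0.16), Ncf1 (-0.05 ± 0.15) and Nos2 (-0.26 ± 1.12) were the others. The signs of Ncf1 and Nos2 changed in some fits with 1 library left out. Levels of several members were correlated across libraries, so these signs are not independent. Among all genes edgeR called 0%, 837 (4.88%) had an unadjusted p under 0.05, and DESeq2 called 58, of which 1 was a member, Cybb.

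In striatum after LPS 0 of the 9 genes were called, against 0.146% of all genes (25 genes in edgeR and 228 in DESeq2, with no member among the latter). Cybb was at 191, 133 and 174 CPM in control and 96.9 and 109 in MIA offspring, a difference of -0.69 ± 0.25 (adjusted p = 0.38). Cyba was at 636, 374 and 580 against 312 and 349, a difference of -0.68 ± 0.21 (adjusted p = 0.28). Here too the MIA libraries were the lower ones, though by little between 349 and 374. Prdx5 (-0.56 ± 0.18) and Ncf4 (-0.53 ± 0.20) had adjusted p of 0.31 and 0.41, and Acod1 was at -0.82 ± 0.85, Sod2 at -0.24 ± 0.18 and Gpx1 at -0.12 ± 0.18. Ncf1 was the member above 0, at 0.20 ± 0.17. The ranges of the neutrophil sums after LPS overlapped between control and MIA striatum, while in cortex the control libraries (928 to 1110 CPM) lay above the MIA libraries (585 to 915). Monocyte markers overlapped between control and MIA in both regions after LPS. Border macrophage markers were at 641 to 935 CPM in control striatum and 1419 to 1748 in MIA striatum after LPS. The part of these cells in the differences was not tested.

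**Figure D3:**
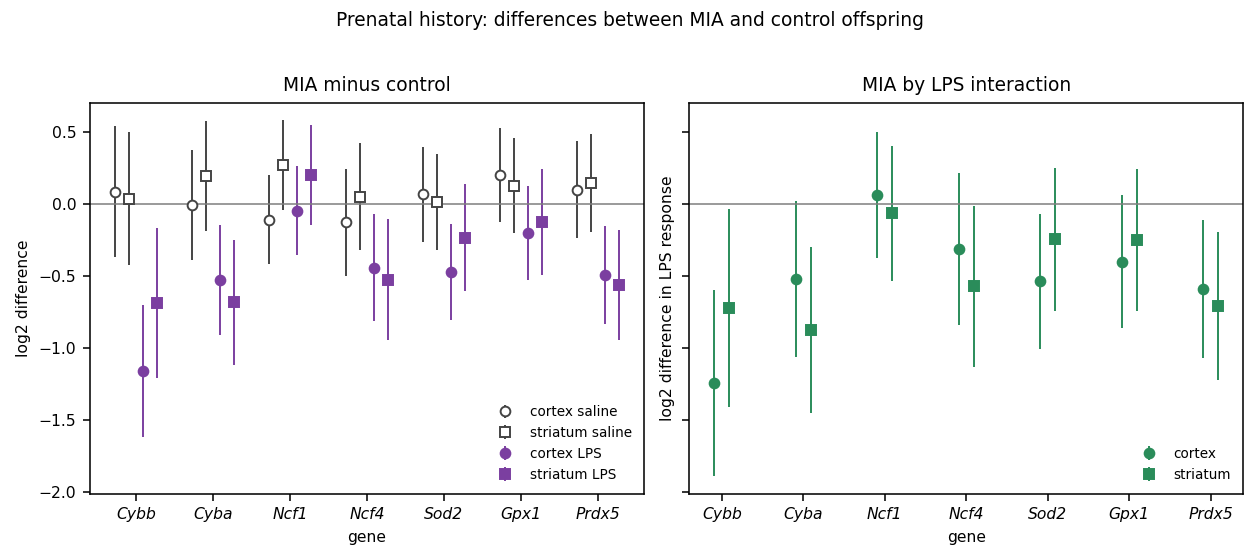
Left, log2 difference of MIA minus control offspring after saline (open) and after LPS (filled); right, difference between the LPS responses of MIA and control offspring. Circles are cortex, squares striatum or, in the right panel, as named in the key, and bars are 95% intervals; after LPS Cybb lies at -1.16 in cortex and -0.69 in striatum, and Nos2 and Acod1 are left out for scale.

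Whether the response itself differed was tested with an interaction term, the LPS change in MIA offspring minus that in controls. In the fit averaged over regions none of the 9 genes was called, against 0.0175% of all genes (3 genes). The value for Cybb was -0.98 ± 0.23 (adjusted p = 0.11, edgeR), for Cyba -0.70 ± 0.19 (0.21), for Prdx5 -0.65 ± 0.17 (0.17) and for Acod1 -2.88 ± 0.95 (0.33). Ncf4 was at -0.44 ± 0.18, Sod2 at -0.39 ± 0.16 and Gpx1 at -0.33 ± 0.16, and Ncf1 had a 95% interval of -0.32 to 0.32. These values use the same libraries as the group differences after LPS and are not independent of them.

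Of the 9 genes, 6 had an unadjusted p under 0.05 for the averaged interaction, all negative, where 9.32% of all genes had one in either direction. With DESeq2, 149 genes and 3 members were called: Cybb (adjusted p = 0.009), Prdx5 (0.0245) and Cyba (0.0417). Without the filter on low counts edgeR called Cybb (adjusted p = 0.0329). In cortex alone Cybb was at -1.24 ± 0.31 (adjusted p = 0.9) and Acod1 at -4.41 ± 1.33 (adjusted p = 1), and edgeR called 0% of all genes, with 744 at an unadjusted p under 0.05 and 1 called by DESeq2. In striatum alone Cyba was at -0.88 ± 0.28 (adjusted p = 0.56) and Prdx5 at -0.71 ± 0.24 (0.62), again with 0% of all genes called by edgeR, 1323 at an unadjusted p under 0.05 and 37 called by DESeq2. For the cortex interaction, 1 of 15 neutrophil and 0 of 12 monocyte markers lay above 0 (medians -1.49 and -1.18, all genes -0.02). For striatum 10 of 15 and 6 of 12 did (medians 0.14 and -0.02, all genes -0.03). None of these markers was called, and their part in the interaction was not tested.

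Between regions after saline, every striatum library held less Cybb than every cortex library of the same prenatal history, but no gene of the 9 was called in the main fit. In control offspring after saline the difference was -0.75 ± 0.22 (adjusted p = 0.13, edgeR) and in MIA offspring -0.80 ± 0.22 (adjusted p = 0.34). With same-numbered libraries as a block within prenatal history and treatment, Cybb was called in both (adjusted p = 0.0104 and 0.0207, edgeR). The labels do not say whether such libraries share a mouse. The libraries stood at 54.5 to 59.2 against 30.0 to 41.0 CPM in controls and 50.7 to 74.2 against 22.5 to 43.7 in MIA. Among all genes 0.502% were called in control and 0.0817% in MIA offspring. Without overlap were 3 of the 9 in each, Cybb, Nos2 and Sod2 in control and Cybb, Ncf1 and Sod2 in MIA offspring, where 22.4% and 10.3% of all genes did not overlap. Sod2 had the higher values in striatum, by 0.22 ± 0.16 and 0.17 ± 0.16. Border macrophage markers, like Cybb, stood lower in striatum, with sums of 1070 to 1449 CPM in cortex and 608 to 723 in striatum of controls and of 1036 to 1362 and 618 to 814 in MIA offspring. Of these 10 markers 0 lay higher in striatum and 0 were called, with median log2 differences of -0.95 and -0.999. Neutrophil sums were also lower in striatum, at 414 to 670 against 304 to 348 CPM in controls and 563 to 1053 against 299 to 372 in MIA offspring, where 4 of 15 markers were called lower. Oligodendrocyte markers went the other way, at 296 to 501 CPM in cortex and 1377 to 5619 in striatum of controls. The part of these cells in the differences was not tested.

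The response to LPS did not differ detectably between regions. EdgeR called 0% of all genes for the difference of the responses in control and in MIA offspring, with 946 and 478 genes at an unadjusted p under 0.05 and 10 and 6 called by DESeq2, none of them a member. The difference for Cybb, striatum minus cortex, was 0.38 ± 0.31 (95% interval -0.26 to 1.02) in control and 0.90 ± 0.33 (0.22 to 1.58, adjusted p = 1) in MIA offspring. For Sod2 it was -0.40 ± 0.22 and -0.11 ± 0.24.

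Other genes of the same pathways were read from 6 lists. The shares below stand beside 18.2%, 20.9%, 11.9% and 10.2% of all tested genes called in control cortex, control striatum, MIA cortex and MIA striatum, and values for each list are given in that order. The median log2 fold changes of all genes were 0.04, -0.02, 0.01 and -0.06. Of 20 genes that assemble or regulate NADPH oxidases, 14 passed the filter, and the 6 that did not were Nox1, Nox3, Nox4, Noxa1, Duox1 and Duox2, the catalytic and partner subunits of other oxidases. With LPS 2 were called higher and 2 lower in control cortex, 4 and 3 in control striatum, 3 and 2 in MIA cortex and 2 and 1 in MIA striatum. These were 28.6%, 50%, 35.7% and 21.4% of the 14, with medians of -0.15, -0.03, 0.04 and -0.08. Rac2, the GTPase of the complex, rose in all 4 (0.88, 0.73, 0.76 and 0.71, from 176 to 324 CPM in control cortex). Arhgdib, a binding protein that holds Rac GTPases in the cytosol, rose in 3 (0.53, 0.68 and 0.55), with 0.45 in MIA striatum (adjusted p = 0.052, edgeR). Itgb2, the beta chain of leukocyte integrins, rose in control striatum (0.69), MIA cortex (0.59) and MIA striatum (0.75). Arhgef6, an exchange factor of Rac, fell in all 4 (-0.66, -0.66, -0.46 and -0.60). Pik3cg, which signals from G-protein-coupled receptors, fell in control cortex (-0.88) and control striatum (-0.76). Hvcn1, the proton channel that balances charge during superoxide release, fell in MIA cortex (-0.74, adjusted p = 0.0082, edgeR), and the value in control cortex was -0.19.

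**Figure D4:**
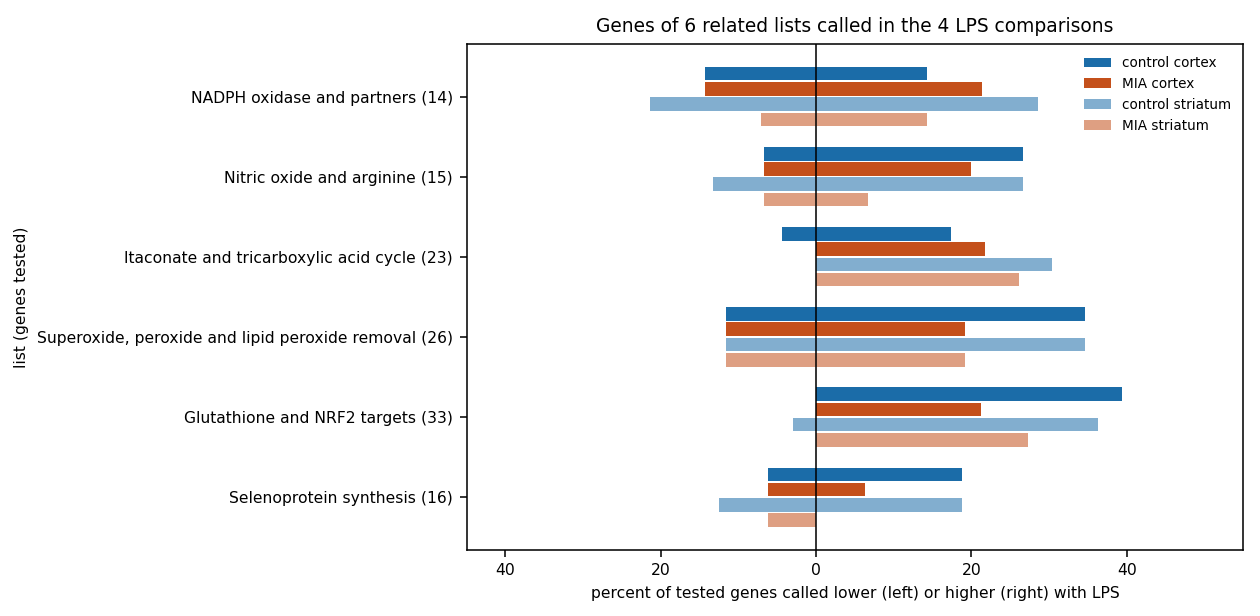
Percent of the tested genes of each of 6 lists called higher (right) or lower (left) with LPS; blue is control and orange MIA, dark bars cortex and pale bars striatum, with the number of genes tested in brackets. Calls to the right outnumber those to the left in every LPS comparison in the lists of glutathione and NRF2 targets (13 and 0 of 33 in control cortex), of the tricarboxylic acid cycle, and of superoxide and peroxide removal. The other lists do so in some comparisons. Among all tested genes in control cortex, 18.2% were called and 10.9% were called higher.

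For nitric oxide and arginine, 15 of 16 listed genes were tested. Called higher and lower were 4 and 1 in control cortex, 4 and 2 in control striatum, 3 and 1 in MIA cortex and 1 and 1 in MIA striatum. These were 33.3%, 40.0%, 26.7% and 13.3% of the 15, the last near the share of all genes, with medians of 0.41, 0.33, 0.08 and 0.36. Slc7a1, an arginine transporter, rose in control cortex from 8.95 to 50.3 CPM (2.49 ± 0.43) and was also called in control striatum (1.61) and MIA cortex (1.56). Gch1, the first enzyme in the synthesis of the nitric oxide synthase cofactor tetrahydrobiopterin, rose in control cortex (1.28 ± 0.26) and control striatum (0.97 ± 0.25). In MIA cortex and striatum it was at 0.37 and 0.39, and neither passed. Arg1, the arginase that competes for arginine, rose in all 4 (3.77, 4.53, 4.30 and 4.08) but from at most 1.41 CPM on average, reaching 32.6 CPM in control striatum and 18.8 in MIA striatum. Ddah2, which degrades inhibitors of nitric oxide synthases, fell in all 4, by 0.75 to 1.10 on the log2 scale. Between regions in control offspring after saline, Qdpr and Ass1 were called higher in striatum (0.75 ± 0.16 and 1.65 ± 0.36, adjusted p = 0.04 and 0.042, edgeR). Qdpr regenerates tetrahydrobiopterin, and Ass1 takes part in remaking arginine from citrulline.

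Of 23 listed genes of the tricarboxylic acid cycle and its carriers, the source of the substrate of Acod1, all were tested. Called higher and lower were 4 and 1 in control cortex, 7 and 0 in control striatum, 5 and 0 in MIA cortex and 6 and 0 in MIA striatum. These were 21.7%, 30.4%, 21.7% and 26.1% of the 23, the first near the share of all genes, with medians of 0.28, 0.27, 0.27 and 0.33. Idh3a, a subunit of the NAD-dependent isocitrate dehydrogenase, rose in all 4 (1.11, 0.93, 1.04 and 0.91, from 56.5 to 122 CPM in control cortex). Mdh2, the mitochondrial malate dehydrogenase, rose by 0.66, 0.84, 0.59 and 0.73. Idh2, the NADP-dependent mitochondrial enzyme, fell in control cortex (-0.39, adjusted p = 0.027, edgeR).

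Among 26 other genes that remove superoxide, peroxide and lipid peroxide, 9 were called higher and 3 lower in each control region, and 5 and 3 in each MIA region. These were 46.2% and 30.8% of the 26, with medians of 0.39, 0.08, 0.23 and 0.17. Gpx3, a secreted glutathione peroxidase, rose in all 4 (2.05, 1.81, 1.50 and 2.00; 33.5 to 139 CPM in control cortex). Mitochondrial thioredoxin Txn2 rose by 0.86, 0.82, 0.63 and 0.57, and the thioredoxin reductase Txnrd1 by 1.04, 1.19, 0.99 and 0.91. Prdx1, a cytosolic peroxiredoxin, rose in 3 of the 4 (0.69, 0.60 and 0.49), with 0.36 in MIA striatum (adjusted p = 0.096, edgeR). Catalase, Cat, fell in all 4, by 0.47, 0.62, 0.41 and 0.41, and Sesn1, a stress-inducible sestrin, fell by 1.29, 1.09, 0.93 and 0.89.

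Of 33 glutathione genes and targets of the transcription factor NRF2, 13 were called higher and 0 lower in control cortex, 12 and 1 in control striatum, 7 and 0 in MIA cortex and 9 and 0 in MIA striatum. These were 39.4%, 39.4%, 21.2% and 27.3% of the 33, with medians of 0.36, 0.45, 0.19 and 0.20. Gsto1, a glutathione transferase, rose by 1.42, 1.41, 1.26 and 1.07, and Glrx, glutaredoxin, by 1.63, 1.46, 1.14 and 1.08. Pgd, of the NADPH-producing pentose phosphate pathway, rose by 1.35, 1.52, 1.14 and 1.38, and G6pdx, its first enzyme, by 0.65, 0.63, 0.63 and 0.79. Fth1, the ferritin heavy chain, rose from 1930 to 5022 CPM in control cortex. Of 16 genes for selenoproteins and their synthesis, 3 were called higher and 1 lower in control cortex, 3 and 2 in control striatum, 1 and 1 in MIA cortex and 0 and 1 in MIA striatum. These were 25.0%, 31.2%, 12.5% and 6.25% of the 16, near the share of all genes in MIA cortex and below it in MIA striatum, with medians of 0.28, 0.29, 0.17 and 0.10. Selenop, the secreted selenium carrier, fell in all 4 (-1.57, -1.59, -1.25 and -1.52), from 5454 to 1832 CPM in control cortex. No gene of the 6 lists was called for a difference between MIA and control offspring or for an interaction.

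The genes most like each member were taken by Pearson r of log2 CPM over the 23 libraries, among 8068 genes averaging 10 CPM or more. These libraries share treatment, region and depth, so r is a description. Cybb was most like Ccl2, a monocyte chemokine, and Ifi207, an interferon-inducible gene (0.95 each), and Acod1 most like Tubb6 (0.97) and Glrx (0.95). Cyba was most like Psmb10, an immunoproteasome subunit (0.95), and Atp6v0b (0.94), and Prdx5 most like the proteasome subunits Psma7 and Psmb3 (0.97 each). For Sod2 these were Stoml2 (0.98) and Ppa1 (0.97), for Gpx1 Sh3bgrl3 and Eef1e1 (0.96 each), and for Ncf4 Brix1 and Uchl3 (0.94 each). Ncf1 reached 0.83 with Dlst and 0.78 with Dennd4b, and Nos2 0.64 with Slc2a1 and Net1. Among the members, Cybb had an r of 0.86 with Cyba, 0.83 with Ncf4, 0.86 with Acod1, 0.87 with Sod2 and 0.87 with Prdx5, but 0.18 with Ncf1.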

How the data were processed

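The deposited table holds 1 expected count per gene and library, made with STAR and RSEM per the submitters' processing notes, which also name DESeq2 (versions and genome build: not given in the sources used here). Expected counts were rounded to whole numbers. Of 55487 gene identifiers, 55141 matched a symbol. EdgeR 4.0.16 (R 4.3.3, limma 3.58.1) fitted 8 group terms to 23 libraries of 19453295 to 29480499 counts (15 residual degrees of freedom), after filterByExpr (minimum count 10, minimum total 15) and TMM scaling; CPM are relative to the scaled library total. The quasi-likelihood test was two-sided, with Benjamini-Hochberg adjustment within each of 15 comparisons. Precision is limited by 2 or 3 libraries per group. Log2 CPM used a prior count of 2, and lengths are unions of GENCODE exons (GRCm38).

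The 9 genes and all lists (6 of pathway genes, 8 of cell markers: microglia, neutrophil, blood monocyte, border macrophage, endothelial and pericyte, astrocyte, oligodendrocyte, neuron) were chosen with earlier results of these data known. Named were the 9 genes, per list and comparison up to 4 called genes of smallest adjusted p, and the 2 genes most like each member. Alternatives were RLE scaling, no filter, DESeq2 1.42.0, a replicate block, the excluded library added back and each library left out. The model was tested on simulated data.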

Additional observations from a re-analysis of the deposited data

Results flagged for a closer look

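The library marked for exclusion by the submitters, the third of MIA striatum after LPS, took no part in the comparisons. In it Cyba was at 455 CPM, Ncf4 at 97.4, Acod1 at 8.70, Sod2 at 152, Gpx1 at 712 and Prdx5 at 204. Each of these stood above the highest MIA striatum saline library. How often that held among all tested genes was not counted, so no response to LPS is read from it. Cybb, at 41.6 CPM, lay within the range of the saline libraries, unlike in the other two LPS libraries of the group (96.9 and 109), and Ncf1 was at 335 and Nos2 at 0.183. Why the library was excluded was not given in the sources used here, and the cause of the difference was not tested.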

How the results depend on the processing

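Nos2 (at most 55 counts) and the saline level of Acod1 rest on few reads, and 2 or 3 libraries per group set the precision. Over single-gene values, 362 of 378 kept their direction and their side of the threshold under other settings, 12 gained a call and 4 changed sign. With 1 library left out 1668 of 1702 did, 3 lost a call, 9 gained one and 22 changed sign. The number of the 9 genes called for the MIA effect in cortex after LPS went from 0 to 1 without the filter and to 1 with DESeq2, and for the averaged interaction from 0 to 1 without the filter and to 3 with DESeq2. With 1 library left out, the number called stayed at 7 in each control LPS comparison and ran from 2 to 4 in MIA cortex, from 3 to 4 in MIA striatum and from 0 to 1 for MIA in cortex after LPS, where the third MIA cortex library after LPS made the difference; it stayed at 0 elsewhere. With the excluded library added back, the log2 change of Ncf1 with LPS in MIA striatum turned to -0.10, and in the MIA effect in striatum after LPS Ncf1 turned to -0.0058 and Gpx1 to 0.040, while Prdx5 was called for LPS in MIA striatum (adjusted p = 0.0387, edgeR). Without the filter, Ncf1 turned to 0.012 in the averaged interaction. With 1 library left out, the values that changed sign ran from -0.16 to 1.83 for Nos2 with LPS in control cortex, from -0.086 to 0.25 and from -0.15 to 0.27 for Cybb between MIA and control after saline in cortex and striatum, from -1.09 to 0.68 for Nos2 and from -0.14 to 0.11 for Ncf1 between MIA and control cortex after LPS, from -0.22 to 0.000197 for Gpx1 between MIA and control striatum after LPS, and from -0.091 to 0.067 for Ncf1 in the averaged interaction; none of these was called, and the cause of the changes was not tested.

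The labels number the replicates 1 to 3 in each group without saying what a number shares. Deviations of same-numbered libraries from their group means correlated by more than 0.1 in 8 of 11 pairs of regions (range -0.20 to 0.31) and in 35 of 77 pairs in all. These correlations cannot decide whether same-numbered cortex and striatum libraries came from the same mouse. The main fit took the libraries to share only a number, so its comparisons between regions ignore any such pairing. With the number as a replicate block, 7, 7, 4 and 4 genes were called for LPS in control cortex, control striatum, MIA cortex and MIA striatum, the gain being Ncf4 in MIA cortex (adjusted p = 0.0466, edgeR). With a block within prenatal history and treatment, 1 gene, Cybb, was called between striatum and cortex after saline in control (adjusted p = 0.0104, edgeR) and 1, again Cybb, in MIA offspring (0.0207), each from 0 without the block.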
